A study of Mus musculus with 6 samples.

Results

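The intervals described here overlap the 5'UTR, the stretch of an mRNA before its start codon. They come from peaks in RNA precipitated with Ago2 from cells labelled as mouse myocytes. They were obtained by merging the peaks of 5 libraries wherever peaks overlapped or touched, and by keeping each merged interval that shared at least 1 bp with the 5'UTR of a protein-coding transcript in GENCODE M21 (mm10) and no base with a 3'UTR of any transcript. This left 3619 of 41363 intervals, in 2924 genes, and they are called 5'UTR intervals below. A further 430 intervals met a 5'UTR but were left out because they also met a 3'UTR.

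The libraries came from RISC-IPs, immunoprecipitations of the RNA-induced silencing complex with an antibody against its core protein Ago2, on primary mouse satellite cells (MSC), the muscle stem cells that can be cultured and made to differentiate. All cultures were kept for 30 h in DM, the low-serum medium that starts differentiation, and were then transfected with a duplex RNA at 10 nM according to the sample labels (the study's methods state a higher dose) and lysed 16 h later. In control-IPs the duplex was siGFP, which targets a jellyfish protein the cells do not make, and in miR-222-IPs it was miR-222, so every group had been transfected. Of the 4 control-IPs and 2 miR-222-IPs, experiment 1 gave the first miR-222-IP with control-IP replicates 1 and 2, and experiment 2 gave the second miR-222-IP with control-IP replicates 3 and 4. No label says whether the samples of an experiment came from separate cultures or animals, and the miR-222 level was raised by transfection, so it was not the level of the cell itself. The title of miR-222-IP replicate 2 names another miRNA, whereas its condition label gives miR-222.

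MiRNAs guide Ago2 to mRNAs through their seed, bases 2 to 8 counted from the 5' end, and the sites known to lower mRNA levels lie mostly in 3'UTRs. The 5'UTR is where the small ribosomal subunit loads and scans toward the start codon, and upstream open reading frames, iron-responsive elements and terminal oligopyrimidine (TOP) tracts there control translation of particular mRNAs. MiR-222 and miR-221 share a seed and are lowered as myoblasts differentiate, whereas miR-206 and miR-133 are muscle miRNAs.

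Each deposited peak has a position and a −log10 p of its enrichment, which is the only measure of strength in the lists, and every value below is that −log10 p unless another quantity is named. These 5 libraries are written C1, C2 and C4 for the control-IPs by replicate number, and M1 and M2 for the miR-222-IPs. Their lists held between 10579 and 37762 peaks, the fewest in C1 and the most in M2, and C2 held exactly 20000. The number of sequenced reads is not known from the lists, so no counting error can be given. Control-IP replicate 3 was left out by the selection rule. Its 3619 peaks, as many as there are 5'UTR intervals by coincidence, had a median width of 32103 bp against 362 to 411 bp in the other libraries, and lay on 10 chromosomes only.

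The label of the cells was checked against marker genes, and the data went against it in part. Of 10 myocyte markers, 7 to 9 had an exonic peak in C1, C2, C4 and M1 and all 10 had one in M2, where the summed highest −log10 p over the list was 1417 against 250 to 429 in the others. Myod1, the transcription factor that commits cells to muscle, reached 27.4 in C1, 22.3 in C2, 26.8 in C4, 29.2 in M1 and 174 in M2. Myog, which drives differentiation, was seen in M2 alone, at 75.7. Of 8 leukocyte markers 5 or 6 had a peak in each library, with sums of 811 to 963, and Cd3e, which marks T cells, had none. Fibroblast markers had a peak for 0 to 3 of 8 genes, endothelial markers for 1 or 2 of 7 and Schwann cell markers for 2 or 3 of 6.

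After these values were seen, 20 genes of microglia and other tissue macrophages were listed, of which Csf1r is also on the leukocyte list. All 20 had an exonic peak in every library, with sums of 2767 to 3026. P2ry12, a purine receptor typical of microglia, reached 113, 129 and 124 in the control-IPs and 123 and 105.1 in the miR-222-IPs, and Tmem119, another microglial gene, 111 to 131 over the 5 libraries. Of 10 genes of oligodendrocytes and astrocytes, chosen in the same way, 7 or 8 had a peak in each library, with sums of 445 to 806, and Mog and Mag, which mark myelin, had none. Of 10 neuronal genes 4 to 6 had a peak, with sums of 154 to 350, and Syt1, Tubb3 and Gad1 had none in any library. Macrophage genes thus had strong peaks of similar size in all 5 libraries, and muscle genes had strong peaks mainly in 1 of them. The part this plays in the results below was not tested. In bulk RNA fewer cells of a type and less RNA per cell cannot be told apart.

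Sites for miR-222 in the 5'UTR are shown first, since binding by seed is the question the miR-222-IPs were made for. The mature sequences below are from RefSeq (GRCm38.p6), 5' to 3', with the seed in capitals. MiR-222-3p and miR-221-3p share the seed GCUACAU, and miR-222-3p lies at chrX:19146901-19146923 on the minus strand.
miR-222-3p: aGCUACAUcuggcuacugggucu
miR-221-3p: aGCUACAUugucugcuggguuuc
miR-206-3p: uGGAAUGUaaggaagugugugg
miR-133b-3p: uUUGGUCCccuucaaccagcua
let-7a-5p: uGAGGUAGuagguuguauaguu

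The DNA letters that pair with the miR-222 seed are ATGTAGC. They occurred on the strand of the gene at 9 places in the 5'UTR parts of the 3619 intervals, in Ptprc, Cep170, Nmt1, Abca9, Peak1, Gm9817, Map2k6, Tmem144 and Zfp26. The 6 strongest of these intervals are shown with the 7 letters in capitals within 30 bases of the gene's strand.
Gm9817: agcaccgagagATGTAGCcatgttcgtcct
Ptprc: tttagcagtgcATGTAGCtagcaagtggtt
Peak1: actgtaaagggATGTAGCacttgctgccaa
Nmt1: aggagccctccATGTAGCggggcgcggagt
Abca9: tcaaaatcaacATGTAGCagtgactcgaaa
Cep170: tttgcaggataATGTAGCtttgctaaggat

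The site letters begin with ATG followed by TAG, so each match is also a start codon directly followed by a stop codon. The Nmt1 match (chr11:103028534-103028540) lay 32 genomic bases from the start codon and that of Cep170 (chr1:176793639-176793645) 30 bases from it. Nmt1, which attaches myristate to proteins, had no peak in C1, values of 63.5 in C2 and 26.1 in C4, and 49.9 in M1 and 58.4 in M2. Ptprc, the leukocyte phosphatase CD45, had 69.0 in C2 and 78.3 in C4, and 53.6 in M1 and 83.7 in M2. In both genes the control-IPs and miR-222-IPs overlapped. Cep170, a centrosomal protein, had 27.8 in C2 and 32.8 and 55.1 in M1 and M2. Peak1, a kinase-like scaffold, had 48.5 in C4 and 68.3 and 78.9 in M1 and M2. In these 2 genes both miR-222-IPs lay above the single control-IP with a peak. Abca9, a lipid transporter family member, had 29.9 in C1, 60.2 in M1 and 28.2 in M2, so its miR-222-IPs lay on both sides of C1.

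The Gm9817 interval (chr13:45078325-45079023) was found in M2 alone, at 171, with the match 2 bases from the start codon. It also covers Hsp25-ps1, a processed pseudogene of the small heat shock protein gene, so its reads may be shared with that family and the match is uncertain.

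None of the 9 intervals with a miR-222 match in the 5'UTR had a peak in all 5 libraries, none was seen only in both miR-222-IPs, and 3 were seen in M2 alone. In the 5'UTR parts these matches were rarer than those of the other seeds. Per 100 kb of covered 5'UTR there were 1.84 for the seed of miR-221 and miR-222, 4.51 for that of miR-1 and miR-206 (ACATTCC), 4.51 for miR-133 (GGACCAA) and 5.32 for let-7 (CTACCTC). Over whole intervals read on the strand of the gene, ATGTAGC was found in 47 of 3422 5'UTR intervals (1.37%), in 1.54% of intervals over coding sequence only, in 6.50% of intervals over 3'UTR without coding sequence and in 2.51% of all intervals. Intervals over 3'UTRs were wider, and per 100 kb the matches numbered 3.17, 3.92, 7.68 and 4.76. The other seeds had 5.94 to 6.80 per 100 kb in coding-only intervals and 6.16 to 6.87 in all intervals. ATGTAGC was thus the rarest match there too, and its rarity was not particular to 5'UTR intervals. In 3'UTR intervals without coding sequence it was the most frequent, where the other seeds had 5.89 to 7.26. Of the 47, 6 had a peak in all 5 libraries, with a median log2 ratio of miR-222-IP to control-IP (defined below) of 0.10, and 2 of these lay above every control-IP. A further 2 (4.26%) were seen only in both miR-222-IPs, where 6.36% of all intervals were. These matches are letters in a sequence and not tested sites.

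The muscle seeds met other genes. Of 22 matches for miR-133, 1 lay in the strongest of all 5'UTR intervals, that of Cd81, 28 bases from the start codon. Another lay in Casq2, the calcium store protein of muscle, which had 34.1 in C2, 26.6 in M1 and 140 in M2. Matches for miR-1 and miR-206 included Sparc, a matrix protein, with values of 119 to 146 in all 5 libraries. They also included Mbnl2, a splicing regulator, whose 58.3, 41.2 and 95.1 in the control-IPs overlapped the 61.8 of M1 and lay below the 170 of M2.

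The 5'UTR intervals held the start codon more often than the start of transcription, which the rule itself favours. An interval that reaches from coding sequence 1 bp into an adjoining 5'UTR is kept and holds the start codon. Of the 3619, 2945 (81.4%) held a start codon that follows an overlapped 5'UTR, whereas only 635 (17.5%) held the annotated transcription start of their transcript and 535 (14.8%) held neither. The centre lay a median of 51.5 bp downstream of the start codon, with a middle range from 3 to 110 bp, in the 2909 intervals that held the start codon of their chosen transcript. The median interval was 359 bp wide (164 to 2412 bp), of which 104 bp, or 28.8%, were 5'UTR. The 3 widest were in Nrip1 (2412 bp), Smcr8 (2353 bp), a partner of C9orf72, and Skil (2327 bp), a repressor of TGF-β signalling, and all 3 reached far into coding sequence. Only 40 intervals lay wholly in 5'UTR, and 870 (24.0%) had at least 50% of their width there. When that was required (3'UTR overlap then allowed), 56.7% held a start codon.

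The 5'UTR part lay in exon 1 in 1865 intervals, in exon 2 in 1242, in exon 3 in 358 and in exon 4 or later in 154. Among the 1865 in exon 1, 635 held the transcription start and 1468 (78.7%) the start codon. Their upstream edge lay a median of 32 bp downstream of the transcription start (middle range from 20 bp upstream to 116 bp downstream). Most intervals (3145) ran past annotated exons, with a median of 30.0% of their width outside them, so the peaks were not cut at exon ends. In 642 intervals (17.7%) all of the 5'UTR part was coding sequence in another transcript of the annotation, so for these the class rests on the transcript chosen.

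**Figure D1:**
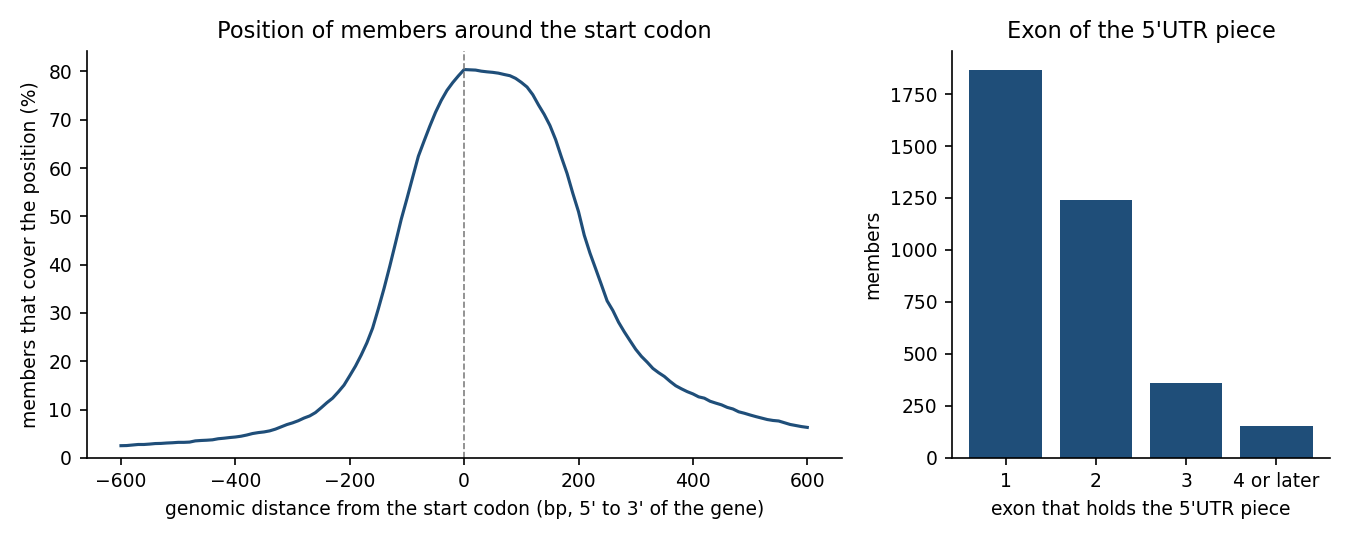
The left panel plots the percentage of the 3619 5'UTR intervals that cover each position within 600 bp of the start codon of their chosen transcript, in genomic bp, and the right panel counts the intervals by the exon that holds their 5'UTR part. Coverage was highest at and just after the start codon, and 1865 intervals had their 5'UTR part in exon 1 against 1242 in exon 2.

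In sequence the 5'UTR intervals were richer in G and C than the others. Their median GC content was 53.9%, against 46.2% in intervals over coding sequence only and 46.6% in all intervals, and they held 2.96 CpG dinucleotides per 100 bp against 1.65 in the coding ones. Annotated 5'UTRs were longer in the 2924 genes with such an interval (median 234 bp) than in the 7274 protein-coding genes with exonic intervals and a 5'UTR but none over it (164 bp); a longer 5'UTR is also a longer target for the rule. At the edge of the rule, the 238 intervals with 1 to 10 bp of 5'UTR had a median highest −log10 p of 40.4, and the 44 intervals that ended within 10 bp of a 5'UTR without reaching it had 38.5.

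Peaks over 5'UTRs were a little stronger than peaks over coding sequence and weaker than peaks over 3'UTRs, in every library. The median −log10 p of 5'UTR intervals was 32.5, 36.6 and 36.5 in C1, C2 and C4, 36.7 in M1 and 41.9 in M2. In coding-only intervals it was 30.8, 32.7, 32.6, 32.5 and 36.1 in the same order. The mean difference was 3.90 ± 1.43 (SD, n = 5 libraries) and had the same sign in 5 of 5 libraries. Against intervals that join coding sequence and 3'UTR the mean difference was −4.81 ± 1.81, and against 3'UTR intervals without coding sequence −1.95 ± 1.08, both lower in 5 of 5. An exact two-sided sign-flip test over the 5 libraries gave p = 0.0625 for each of the 3, the smallest it can give, and 0.0804 after Benjamini-Hochberg adjustment over the 9 class comparisons made.

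The share of 5'UTR intervals with a peak was 25.1%, 49.2% and 47.8% in the control-IPs, 54.2% in M1 and 90.9% in M2. It exceeded the share of coding-only intervals in 4 of 5 libraries (mean difference 6.90 ± 5.05 percentage points, exact p = 0.125, adjusted p = 0.141) and was lower in M2. Against 3'UTR intervals without coding sequence the difference was 1.16 ± 4.70 points (exact p = 0.625), within the spread between libraries. Peaks over 5'UTRs were 339 to 354 bp wide in median, and those over 3'UTR without coding 450 to 789 bp.

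**Figure D2:**
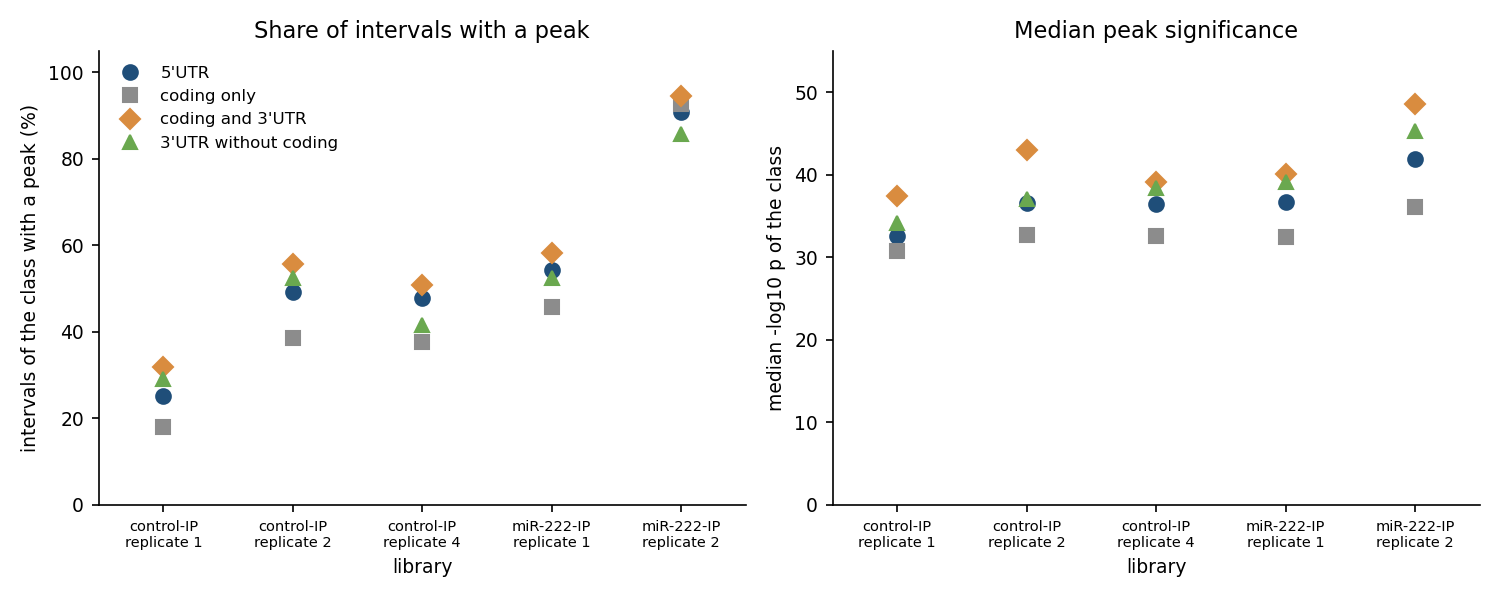
For each of the 5 libraries on the x axis, the left panel gives the percentage of intervals of a class that have a peak and the right panel the median −log10 p of those peaks, with 1 point per class and library. The circles of the 5'UTR intervals lie above the squares of the coding-only intervals in all 5 libraries in the right panel, and below the 2 classes with 3'UTR.

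Within genes the 5'UTR interval was more often not the strongest one. Among genes with a peak in both a 5'UTR interval and another interval, the 5'UTR one was the strongest of the gene in 26.1%, 26.4% and 26.1% of genes in the control-IPs and in 22.8% and 20.3% in the miR-222-IPs. Where a gene also had a 3'UTR interval, the median log2 ratio of the strongest 5'UTR value to the strongest 3'UTR value was between −0.72 and −0.52 over the libraries. Where a gene had a coding-only interval, the ratio of its strongest 5'UTR value to its strongest coding one had a median log2 between −0.28 and −0.16, so the order against coding sequence was turned when maxima within a gene were compared; genes can hold several coding intervals. Of the 2924 genes 2387 had 1 5'UTR interval, 419 had 2 and 118 had 3 or more. The most was 5, reached in Anxa3, Lsp1, Ergic1, Mef2c, Inpp5d and Mllt10.

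The 5 intervals of Mef2c, a transcription factor of muscle that is also active in microglia and neurons, were not alike. The one at chr13:83524774-83525205, in exon 1, had 119, 194 and 155 in the control-IPs and 165 and 175 in the miR-222-IPs. The one at chr13:83575414-83575850, which holds a start codon, had 120, 112 and 167 against 168 and 161. The other one with a start codon, at chr13:83592667-83593150, had 119, 76.9 and 189 against 160 and 150. All of its 5'UTR part is coding in another transcript. In all 3 the spread between control-IPs covered most of the range of the miR-222-IPs. The other 2 intervals were seen in M2 alone, at 62.6 and 22.6. Of the 5 intervals of Inpp5d, the phosphatase SHIP1 of blood cells and microglia, 4 had a peak in all 5 libraries. Its exon 1 interval at chr1:87620332-87620751 had 59.8, 33.0 and 101 in the control-IPs against 133 and 140 in the miR-222-IPs, all above the control-IPs before scaling. After scaling its log2 ratio of miR-222-IP to control-IP was 1.08 in experiment 1 and −0.12 in experiment 2.

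Of the 8 strongest 5'UTR intervals 7 are described here, and none of these was in a gene of the muscle lists. Cd81, a tetraspanin of the cell surface, led with 270, 275 and 317 in the control-IPs and 308 and 290 in the miR-222-IPs (chr7:143052709-143053189, across the transcription start and start codon). Itm2b, a membrane protein found in most tissues, had 244 to 304. Epb41l2, a membrane skeleton protein, and Arsb, a lysosomal sulfatase, followed with values between 148 and 287, as did Cst3, an inhibitor of cathepsins, and Slco2b1, an organic anion transporter, between 163 and 261. Gm5148 had 243 to 263, but its interval (chr3:37714673-37715261) also covers Rps23-ps1, a pseudogene of a ribosomal protein, so its reads may be shared. All 7 had a peak in every library, and before scaling the groups overlapped in each except Cst3, whose miR-222-IPs (220 and 213) lay just below the control-IPs (221 to 224).

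Of the 20 microglia and macrophage genes, 16 held a 5'UTR interval. Their 18 intervals had a peak in 15, 17 and 18 cases in C1, C2 and C4 and in 18 in both miR-222-IPs. In all 5 libraries 14 (77.8%) had one, against 20.0% of all 5'UTR intervals. The list was chosen after its values were seen, so high shares follow in part from that choice. The stronger of the 2 P2ry12 intervals (chr3:59227326-59227712) had 113, 125 and 119 in the control-IPs and 123 and 105.1 in the miR-222-IPs. Gpr34, an orphan receptor of microglia, had 76.7, 94.8 and 64.8 against 120 and 114, above all control-IPs. C1qc, a complement chain, had 46.5, 38.1 and 41.0 against 40.0 and 32.9 in an interval that shares 1 bp with the 5'UTR.

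The 5'UTR intervals of sarcomere genes were mostly seen in M2. Of 50 genes of the contractile apparatus 45 had an exonic interval and 26 of these (57.8%) held a 5'UTR interval, against 28.5% of all 10277 protein-coding genes with an exonic interval. These shares rested in part on M2. With the other 4 libraries merged again, a setting chosen after seeing the data, 9 of 23 genes (39.1%) held one, against 24.1% of 8827. The 34 intervals of the 26 genes had a peak in 6, 7 and 7 cases in the control-IPs, in 9 in M1 and in 33 in M2, and 23 (67.6%) were seen in M2 alone, against 28.2% of all 5'UTR intervals. Lmod2, which elongates thin filaments, had 20.8 in C1, 25.4 in M1 and 247 in M2. Pdlim3, a Z-disc protein, had 24.3 in C2 and 194 in M2. Myl4, an atrial and embryonic light chain, and Myh3, the embryonic myosin heavy chain, were seen in M2 alone, at 142 and 102. Tpm1 and Tpm2, tropomyosins of the thin filament, had 163 and 146 in M2 and at most 34.8 in any control-IP. Tpm3, a tropomyosin of slow muscle and of many other cells, had 25.4, 163 and 61.4 in the control-IPs and 81.9 and 95.9 in the miR-222-IPs, which overlapped. The muscle signal of the 5'UTR intervals thus lay chiefly in 1 of the 2 miR-222-IPs, where the summed myocyte markers were also highest (1417). That sum is not separate support, since Myh3, Myh8, Ttn and Tnnt3 are on both lists. The 23 intervals seen in M2 alone are in the set only through that library, so their excess there follows from the selection.

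**Figure D3:**
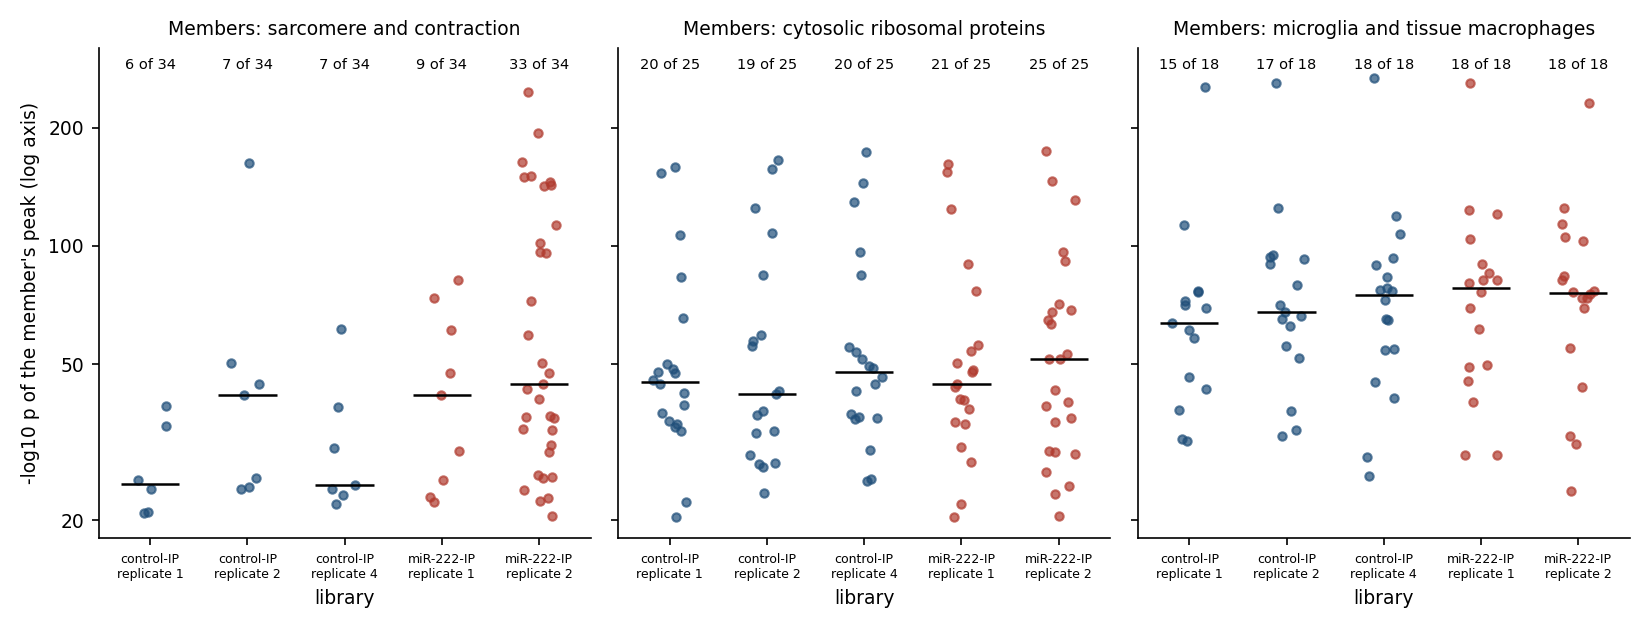
Each point is the −log10 p (log axis) of 1 5'UTR interval in 1 library, for genes of the sarcomere, of cytosolic ribosomal proteins and of microglia and tissue macrophages (the last list was chosen after its values were seen). Bars are medians of the intervals with a peak, and the numbers above give how many intervals have one: 33 of 34 for the sarcomere in M2 (miR-222-IP replicate 2) against 6 to 9 in the other libraries, and 15 to 18 of 18 for microglia.

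Ribosomal proteins, whose mRNAs begin with a TOP tract, held 5'UTR intervals in a share of genes near that of all genes. Of 77 genes with an exonic interval 24 (31.2%) held one, against 28.5% of all protein-coding genes, and 16 of the 25 intervals had a peak in all 5 libraries. Rpl30 had 159, 166 and 174 in the control-IPs and 162 and 175 in the miR-222-IPs. Rplp1, of the ribosomal stalk, had 153, 157 and 145 against 154 and 147. Rpl8 had values from 107 to 131, and Rplp2 had 83.3, 108 and 96.7 against 76.9 and 96.7. In each of these 4 the groups overlapped before scaling. After scaling all 4 lay below every control-IP of their experiment in both experiments. Of the translation factors and other TOP mRNAs 21 of 36 genes (58.3%) held a 5'UTR interval. Without M2 these were 16 of 36 (44.4%), against 24.1% of all protein-coding genes. Only 2 of the 26 intervals had a peak in all 5 libraries. Vim, the intermediate filament of mesenchymal and muscle precursor cells, was seen in M2 alone, at 70.9. Npm1, a nucleolar chaperone, had 32.4 in C1, 55.6 in C4, 66.8 in M1 and 91.0 in M2, so both miR-222-IPs lay above the control-IPs. Eif3c, of the initiation factor that binds the small subunit, had 35.5 in C4, 33.3 in M1 and 57.04 in M2. Eif4g1, the scaffold of cap binding, had 61.2 in C2, 20.1 in C4 and 42.9 in M2. All of its 5'UTR part is coding in another transcript.

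Of 5 genes with an iron-responsive element in the 5'UTR and an exonic interval, both ferritin genes (40.0%) held a 5'UTR interval. The share of all protein-coding genes was 28.5%. Both ferritin intervals had a peak in all 5 libraries. The element blocks translation of the ferritin mRNAs when iron is low. Ftl1, the light chain (chr7:45459429-45459824), had 168, 170 and 184 in the control-IPs and 181 and 160 in the miR-222-IPs, which overlapped before scaling. After scaling Ftl1 lay below every control-IP of its experiment in both experiments, with log2 ratios of −0.27 and −0.80. Fth1, the heavy chain (chr19:9982669-9983084), had 72.9, 80.5 and 69.0 in the control-IPs and 90.1 and 153 in the miR-222-IPs. Both miR-222-IPs were thus the highest for Fth1 before scaling, whereas after it the log2 ratio was −0.13 in experiment 1 and 0.56 in experiment 2.

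Of 16 mRNAs with a known upstream open reading frame 4 held a 5'UTR interval. Ppp1r15b, which directs dephosphorylation of eIF2α, had 61.1 in C2, 55.6 in C4, 57.1 in M1 and 112 in M2. Sat1, which degrades polyamines, had 23.0 in C2 and 54.6 in M2. Atf5, a stress transcription factor, had 27.5 in C2 and 21.4 in M2, in an interval that also covers Nup62 and Il4i1 on the other strand. Bcl2l11, a death-promoting protein of the mitochondrion, was seen in M2 alone at 26.5. None of the 4 had a peak in all 5 libraries.

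Of 18 myogenic factors and partners with an exonic interval 9 held a 5'UTR interval. Mef2a, a partner of MyoD, had 39.3, 22.2 and 67.2 in the control-IPs and 89.8 and 130 in the miR-222-IPs. Of 19 splicing regulators 11 (57.9%) held a 5'UTR interval, and 7 of 16 (43.75%) did without M2, against the same 28.5% and 24.1%. Mbnl1, which switches splicing from fetal to adult patterns, had an interval of 1232 bp with 98.8, 154 and 173 against 155 and 179, and one of 411 bp with 80.4, 52.9 and 132 against 121 and 138. Hnrnpl, a repressor of exons, had 37.7, 60.3 and 66.1 against 70.8 and 98.6. The whole 5'UTR part of the Hnrnpl interval, and of the Mbnl1 interval of 411 bp, is coding in another transcript. Mef2a and Hnrnpl lay above all control-IPs in both miR-222-IPs before scaling, and the Mbnl1 intervals did not. After scaling Mef2a still did within each experiment, and Hnrnpl did not.

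Of 18 cell cycle genes with an exonic interval 5 (27.8%) held a 5'UTR interval, against 28.5% of all protein-coding genes. Cdkn1b, the CDK inhibitor p27 and a gene the study followed, had 31.4 in C4, 46.9 in M1 and 51.9 in M2, with no peak in C1 and C2. Cdkn1a, the inhibitor p21, had 160, 139 and 148 against 164 and 156 at its start codon, and a second interval at an upstream leader was seen in M2 alone at 36.9. Ccnd1, cyclin D1, had 45.4, 94.2 and 126 against 90.3 and 150, whereas Ccnd3 (22.1) and Cdk6 (21.01) were seen in C2 alone. Of 14 genes of the study with an exonic interval only Cdkn1b and Naca, a nascent-chain binding protein, held one (14.3%). Naca had 31.9 in C4 and 23.3 in M1, in an interval that shares 2 bp with the 5'UTR.

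Of 23 genes of the RISC and miRNA pathway with an exonic interval 6 (26.1%) held a 5'UTR interval, against 28.5% of all protein-coding genes. Ddx6, a helicase of mRNA decay, had 53.4, 112 and 162 in the control-IPs against 134 and 213. The CCR4-NOT deadenylase subunit Cnot1 had 20.9 in C4, 23.5 in M1 and 96.5 in M2, and Cnot8 had 31.99 in C2, 42.2 in C4, 45.7 in M1 and 106 in M2. Cnot2 and Cnot6, of the same complex, did not exceed 38.6, and Dicer1, which cuts pre-miRNAs, was seen in M2 alone at 20.5. M2 was the highest library for 5 of the 6 intervals, as it was for 74.5% of all 5'UTR intervals.

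Of 26 chaperone genes 13 held a 5'UTR interval, against 28.5% of all protein-coding genes. That count rested largely on M2. Without M2 only 7 of 25 genes held one, against 24.1% of all protein-coding genes. Of the 14 chaperone intervals 7 were seen in M2 alone, against 28.2% of all 5'UTR intervals. Pdia3, of the endoplasmic reticulum, had 86.5, 210 and 197 in the control-IPs against 201 and 223. Canx, calnexin, had 41.9, 38.2 and 55.5 against 71.4 and 87.3, above all control-IPs. Cct5, of the chaperonin that folds actin and tubulin, had 22.2, 20.9 and 50.1 against 46.5 and 85.6. Bag3, a co-chaperone of muscle, had 40.9 in C4, 28.9 in M1 and 76.9 in M2.

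The question put to the miR-222-IPs was which transcripts are bound more to Ago2 when miR-222 is added. For the 725 5'UTR intervals (20.0%) with a peak in all 5 libraries, each value was divided by a scaling factor of its library (0.697, 0.959 and 0.975 for the control-IPs and 1.04 and 1.47 for the miR-222-IPs). The factors were medians of ratios over all 7935 intervals that every library had called. The log2 ratio of the miR-222-IP to the mean of its control-IPs was then taken within each experiment. Its median was 0.05 in experiment 1 (1 miR-222-IP against 2 control-IPs) and −0.00 in experiment 2 (1 against 1), with SDs over intervals of 0.47 and 0.50. The mean of both had a median of 0.02 and ran from −0.95 to 1.07.

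Of the 725, 158 (21.8%) lay above every control-IP of their experiment in both experiments, where 17.4% of all 7935 intervals did, and 103 (14.2%) lay below every one, where 18.4% of all did. With 6 arrangements within experiments the exact permutation test of 1 interval cannot go below p = 0.167, so no single interval could pass a threshold of 0.05. The counts also moved with the scaling, and without it 395 lay above and 10 below. In experiment 1 alone, and so without M2, 269 of 747 intervals with a peak in its 3 libraries lay above both control-IPs and 159 below both. No share over all intervals is given without scaling or for experiment 1 alone. These counts therefore cannot be read as particular to 5'UTR intervals or as an effect of miR-222.

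**Figure D4:**
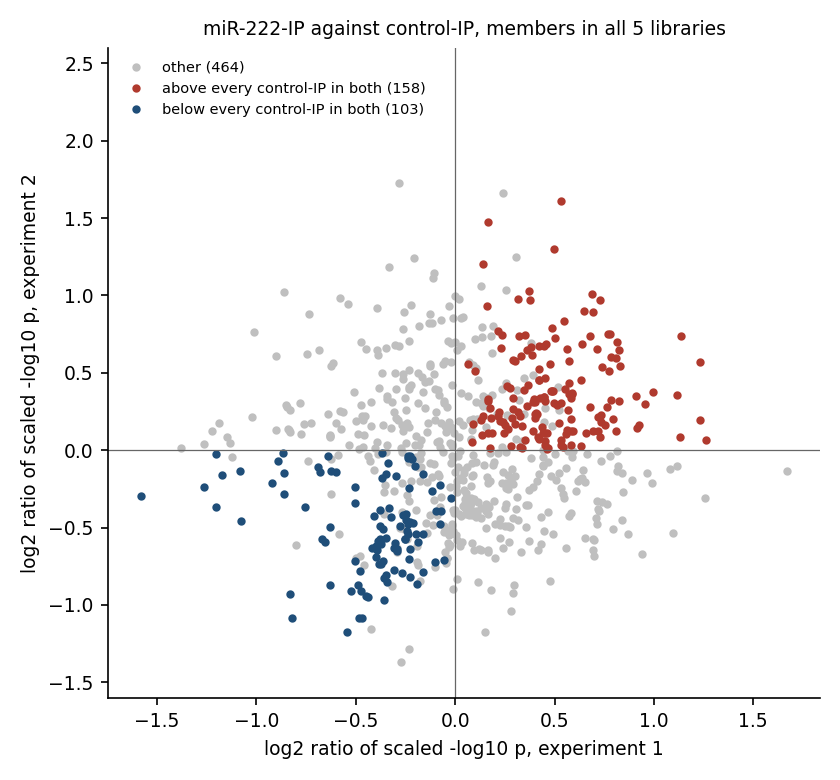
Each point is 1 of the 725 5'UTR intervals with a peak in all 5 libraries, with the log2 ratio of miR-222-IP to control-IP on the scaled −log10 p in experiment 1 on the x axis and in experiment 2 on the y axis. The 158 red and 103 blue points lay above or below every control-IP in both experiments, and the rest are grey.

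The 5 largest mean ratios among those above every control-IP were in Myl1, Cpe, Arid1a, Map1b and Plxna4, and they kept their direction with each scaling tried. Myl1, a light chain of fast muscle myosin, had 24.1 in C1 and 44.5 in C2 against 61.1 in M1, and 24.6 in C4 against 113 in M2, a mean log2 ratio of 1.07. It shares only 2 bp with a 5'UTR, and those are coding in another transcript. A second Myl1 interval (chr1:66930106-66930428) had 39.0 and 41.7 against 73.5, and 38.8 against 96.7. Cpe, a carboxypeptidase of peptide hormone processing (chr8:64692527-64693002), had 28.8 and 29.8 against 83.1, and 36.4 against 91.2, a mean log2 ratio of 0.94. Arid1a, a subunit of the SWI/SNF chromatin remodeller (chr4:133722745-133723124), had 24.9 and 34.3 against 87.6, and 41.8 against 93.6 (0.90). Map1b, a microtubule protein of neurons and regenerating muscle, had 31.8 and 67.0 against 85.1, and 32.8 against 122 (0.90). Plxna4, a semaphorin co-receptor, had 31.7 and 40.2 against 75.7, and 34.0 against 100 (0.85). In each of the 5 both miR-222-IPs also lay above all 3 control-IPs before scaling.

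The 5 smallest were in Sgk1, Wdfy4, Rps15a, Evi2a and Nrip1. Sgk1, a kinase of the serum and glucocorticoid response, had 53.6 and 73.9 against 45.5, and 51.4 against 36.5, a mean log2 ratio of −0.95. Wdfy4, a protein of antigen-presenting cells, had 22.8 and 91.5 against 22.3, and 36.4 against 44.5 (−0.94). Rps15a, a protein of the small ribosomal subunit, had 42.2 and 57.3 against 35.3, and 37.3 against 29.5 (−0.88). Evi2a, a membrane protein of blood cells whose interval also lies in the overlapping gene Evi2, had 96.5 and 107 against 89.6, and 93.2 against 62.3 (−0.86). Nrip1, a nuclear receptor co-repressor with the widest interval (2412 bp), had 26.0 and 113 against 35.0, and 34.0 against 39.6 (−0.79). Without scaling Sgk1, Rps15a and Evi2a were still below every control-IP in both experiments, whereas Wdfy4 and Nrip1 had a larger value in M2 than in C4.

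By list, the 16 ribosomal protein intervals had a median mean log2 ratio of −0.40, with 0 above and 9 below every control-IP, but without scaling the median was 0.08, with 4 above and 1 below. The 14 microglia and macrophage intervals had −0.42 with 1 above (Gpr34) and 8 below, and without scaling 0.04 with 5 above and 0 below. The 4 sarcomere intervals had 0.78 with 2 above (both in Myl1) and 0 below, and without scaling 1.27 with 3 above. The median of all 725 was 0.02 with scaling and 0.49 without, and under both the list median was above that of all for the sarcomere genes and below it for the other 2 lists. Single intervals did not all follow their list. Of the 6 myogenic intervals 3 lay above (Mef2a, Tcf3 and Mymk, the fusion protein myomaker) and 1 below (Mef2c), and without scaling 3 lay above and 0 below. Mymk had 32.6, 36.0 and 43.7 in the control-IPs and 49.2 and 183 in the miR-222-IPs. Beside the sarcomere and myogenic values stand the summed myocyte markers, which were 429 in M1 against 301 in C1 and 255 in C2, and 1417 in M2 against 250 in C4. The sums of the microglia list were 2938 in M1 against 2881 and 3026, and 2767 in M2 against 2966. These sums share genes with the lists they stand beside, among them Myh3 and Mymk, so they are not separate from the list values.

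The calls also moved with GC content and with signal. When all 7935 intervals were cut into 4 equal bins by GC content, 36.0% of the 86 5'UTR intervals in the lowest bin lay above and 2.33% below every control-IP. In the highest bin (GC content over 52.6%) 17.1% of 397 lay above and 17.1% below. For all intervals the same shares were 25.5% and 11.95% in the lowest and 9.93% and 24.4% in the highest bin. In each of the 4 GC bins the share above was larger for 5'UTR intervals than for all intervals. By mean scaled −log10 p, 28.2% lay above and 10.9% below in the weakest bin. The shares of all intervals there were 21.6% and 13.3%. In the strongest bin (over 89.0) 6.62% lay above and 26.5% below, where the shares of all intervals were 6.65% and 33.7%. The part of GC content and signal in these calls was not tested.

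**Figure D5:**
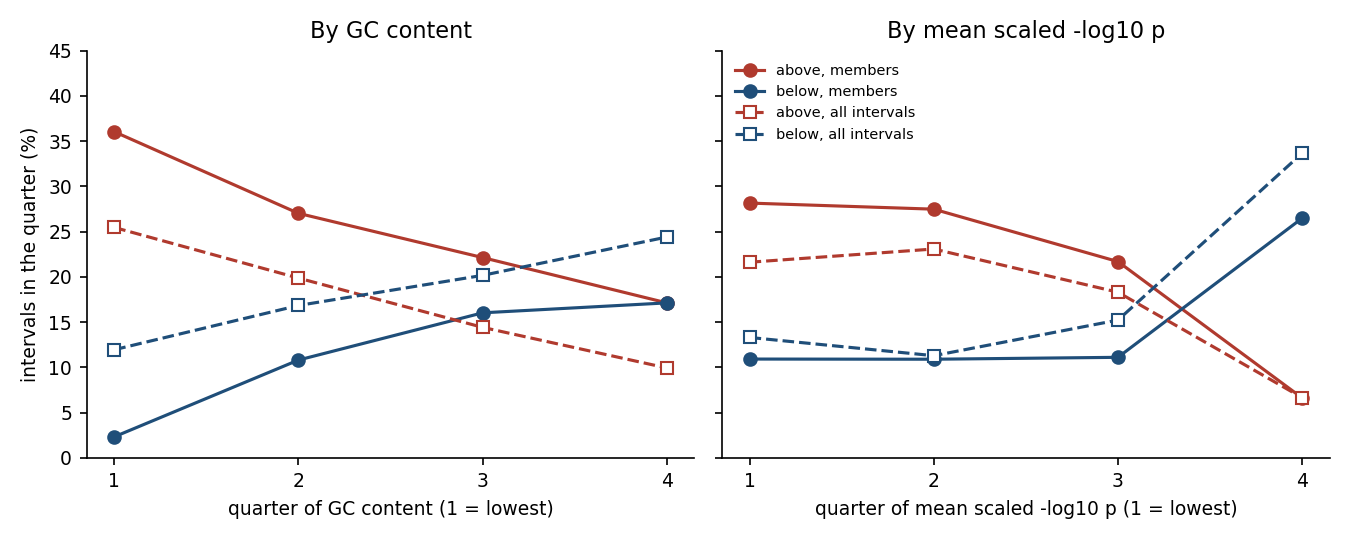
The percentage of intervals above (red) and below (blue) every control-IP in both experiments, within 4 equal bins of GC content (left) and of mean scaled −log10 p (right) set on all 7935 intervals with a peak in all 5 libraries. Filled circles are the 725 5'UTR intervals and open squares all intervals. The share above falls from 36.0% to 17.1% with GC content, and to 6.62% in the bin of strongest signal.

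Peaks called in both miR-222-IPs and in no control-IP occurred at 220 5'UTR intervals (6.08%), where 6.36% of all 41363 intervals had that pattern. Their median value was 24.5 in M1 and 34.7 in M2. The 5 with the highest lower value were Luzp2 (46.8 and 54.4), a leucine zipper protein of the nervous system, Psmd12 (45.9 and 57.2), a subunit of the proteasome, Kmt5b (43.7 and 62.6), a histone H4 methyltransferase, Wapl (42.7 and 43.2), which releases cohesin, and Arhgef11 (43.6 and 41.2), an exchange factor for RhoA. None of the 5'UTR intervals had the reverse pattern, a peak in all 3 control-IPs and in neither miR-222-IP, which 0.00967% of all intervals had (4). The lists of the miR-222-IPs were longer than those of their control-IPs, and 1020 5'UTR intervals (28.2%) were seen in M2 alone, with a median of 27.2 and only 65 over 50.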

How the data were processed

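Ago2-bound RNA of 4 control-IPs and 2 miR-222-IPs was made into libraries that do not keep strand. The authors aligned reads with SOAPSplice, called peaks with MACS2 (version and control track not given in the sources used here) and used bedtools on mm10. The deposited lists give, per peak, its position and the −log10 p of enrichment, all above 20. No read counts were used here, so the depth and counting error are unknown. Overlapping or touching peaks of 5 libraries were merged and classed against GENCODE M21 protein-coding transcripts. An interval took the highest −log10 p of its peaks in a library. Ratios used values divided by median-of-ratios factors, within each experiment, without pseudocount. Class differences were tested over libraries with an exact sign-flip test. No label says that the samples of an experiment were separate cultures, so p-values measure only the spread between these samples.

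The genes named were the 8 strongest intervals (1 of them is not reported here), the 5 highest and 5 lowest ratios among those beyond every control-IP in both experiments, the 5 strongest seen only in the miR-222-IPs, intervals with a miR-222 match, the 3 widest, genes the study followed, and the strongest members of gene lists. Other genes named from the lists were chosen after their values were seen. The members and lists were chosen with earlier results of these data known. MiRNA sequences are from RefSeq (GRCm38.p6). Python 3.11.15, pandas 2.3.3, scipy 1.17.1 and pysam 0.24.0 were used, and the scripts were tested on simulated data.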

Additional observations from a re-analysis of the deposited data

Results flagged for a closer look

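Control-IP replicate 3 stood apart from the other 3 control-IPs in 2 measures, by a gap to the nearest of them that was over 0.829 of the whole range of the 4. Its median peak width was 32103 bp, and the median −log10 p of its peaks was 68.6. Chance flags about 1 in 20 groups in this way. Its peaks covered 1526 of the 1623 5'UTR intervals on its chromosomes, and it enters no value above.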

How the results depend on the processing

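Of 106 values recomputed for 10 results under alternatives, 60 stayed close to the reported value and 46 moved. The median log2 ratio of 0.02 changed sign in 4 of them: it was −0.023 without C1, −0.012 and −0.072 in GC bins 3 and 4, and −0.15 in the bin of strongest signal. With −log10 p over 50 there were 1439 5'UTR intervals, of which 83.4% held a start codon and 13.2% had a peak in all 5 libraries, 82 were seen only in both miR-222-IPs, 47 lay above and 31 below every control-IP, and the median log2 ratio was 0.053. With at least 50% of the interval in 5'UTR (3'UTR overlap then allowed) there were 904, with 56.7% holding a start codon, 59.2% GC, 18.5% in all 5 libraries, 61 only in both miR-222-IPs, 25 above, 16 below, a median ratio of 0.059 and a width 32.5 bp above coding-only intervals. With at least 50 bp of 5'UTR the start codon share was 74.8%, GC 56.4% and the width difference 32 bp. With the 10579 strongest peaks of each library 28.5% were in all 5 and 23 only in both miR-222-IPs. No share over all intervals is given for the counts in this section, so none can be read as particular to 5'UTR intervals.

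Without scaling 395 lay above and 10 below, with a median ratio of 0.49. Scaling to the sum gave 0.066. Without the experiment block, which follows the labelled experiment, 92 lay above every control-IP. Alternatives chosen after seeing the data were experiment 1 alone, with 269 above and 159 below of 747 (no share over all intervals is given), and bins. The median ratio was 0.21 and 0.16 in GC bins 1 and 2, and 0.11, 0.11 and 0.068 in signal bins 1, 2 and 3.

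Leaving out 1 library gave 2570 (without M2) to 3615 intervals, 20.3% to 30.9% (without C1) with a peak in all libraries left, and 241 to 499 (without C4; 343 without C2) seen only in both miR-222-IPs. It gave 262 (without C2) to 291 (without C1) above, 205 (without C2) to 313 (without C1) below, so that without C1 more lay below than above, and median ratios from −0.023 (without C1) to 0.069 (without C2). Fewer control-IPs leave fewer values to exceed. Ratios without C4 or a miR-222-IP were not run, since only 1 experiment would be left and no mean of both could be taken. Counts seen only in both miR-222-IPs could not be defined without 1 of them. The cause of the other shifts was not tested. The lists hold no reads, so an interval without a peak may lie below the threshold.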
